A study of Homo sapiens with 8 samples.

Results

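The mRNA levels of 10 Eph receptor and ephrin genes were followed across 8 libraries of N/TERT-2G, a human keratinocyte line that grows without limit in culture. The genes were taken by symbol from a table of 21510 genes: the A-class receptors EPHA1, EPHA2 and EPHA4, the B-class receptors EPHB2, EPHB3 and EPHB4, the A-class ligands EFNA1 and EFNA4, and the B-class ligands EFNB1 and EFNB2. Another 12 genes of the family were in the table and are described separately. All cells held an shRNA, switched on by tetracycline, that targets the mRNA of amphiregulin (AREG), a ligand of the EGF receptor. They grew in serum-free keratinocyte medium with added calcium chloride. Controls without tetracycline gave 3 libraries, tetracycline alone at 1 µg/ml (Tet) gave 3, and the same tetracycline dose joined by 20 ng/ml of EGF (Tet+EGF) gave 2, all after 60 h. Control and Tet replicate 1 and both Tet+EGF libraries belong to batch 2 of the labels, and control and Tet replicates 2 and 3 to batch 1. Tetracycline and the hairpin always came together, and no library with EGF lacked them.

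Eph receptors form the largest family of receptor tyrosine kinases, and they are activated by ephrins that sit on the surface of neighbouring cells. A-class ephrins are held in the membrane by a lipid anchor, B-class ephrins span it, and signals run into both the receptor-bearing and the ephrin-bearing cell. In epidermis, EPHA2 and its ligand ephrin-A1 are known for their part in keratinocyte differentiation and for damping signals from the EGF receptor to ERK, while EPHA2 itself is known as a gene induced by ERK signalling. EPHB4 is known as the partner of ephrin-B2, best studied in blood vessels.

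The promoters of EPHA2, EPHA4, EPHB3 and EFNA1 are shown because these genes carried the contrasts described here. EPHA4 and EPHB3 were high with Tet and low with Tet+EGF, and EPHA2 and EFNA1 differed in their Tet response between batches. The windows run from 250 bases before to 50 bases after the RefSeq transcription start on GRCh38.p14, written 5′ to 3′ on the gene's strand. Capitals mark matches on either strand to the GC box GGGCGG or the TEAD motif CATTCC.
EPHA2, chr1:16156020-16156319, minus strand: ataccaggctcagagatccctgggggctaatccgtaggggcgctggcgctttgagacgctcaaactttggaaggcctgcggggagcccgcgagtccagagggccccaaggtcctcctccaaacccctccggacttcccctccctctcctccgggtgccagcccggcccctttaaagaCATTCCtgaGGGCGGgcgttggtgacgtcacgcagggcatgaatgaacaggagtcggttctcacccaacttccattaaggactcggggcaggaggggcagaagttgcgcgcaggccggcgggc
EPHA4, upstream start, chr2:221574153-221574452, minus strand: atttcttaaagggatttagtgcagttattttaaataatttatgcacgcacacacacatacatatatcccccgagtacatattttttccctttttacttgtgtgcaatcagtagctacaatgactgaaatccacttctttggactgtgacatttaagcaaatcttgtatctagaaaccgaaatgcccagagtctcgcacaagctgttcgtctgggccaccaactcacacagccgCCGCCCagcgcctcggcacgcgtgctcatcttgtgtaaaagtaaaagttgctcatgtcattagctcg
EPHA4, downstream start, chr2:221572255-221572554, minus strand: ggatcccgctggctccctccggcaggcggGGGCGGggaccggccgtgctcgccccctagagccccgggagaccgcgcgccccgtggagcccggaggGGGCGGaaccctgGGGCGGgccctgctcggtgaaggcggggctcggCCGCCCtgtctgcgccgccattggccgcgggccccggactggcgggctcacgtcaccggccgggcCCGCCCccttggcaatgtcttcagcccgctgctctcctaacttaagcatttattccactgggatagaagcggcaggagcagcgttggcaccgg
EPHB3, chr3:184561535-184561834, plus strand: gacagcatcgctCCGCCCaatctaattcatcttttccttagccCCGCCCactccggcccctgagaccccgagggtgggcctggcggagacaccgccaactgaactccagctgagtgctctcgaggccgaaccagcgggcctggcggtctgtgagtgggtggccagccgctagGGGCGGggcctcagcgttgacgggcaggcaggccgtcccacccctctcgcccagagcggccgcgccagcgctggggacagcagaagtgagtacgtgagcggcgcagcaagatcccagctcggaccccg
EFNA1, chr1:155127626-155127925, plus strand: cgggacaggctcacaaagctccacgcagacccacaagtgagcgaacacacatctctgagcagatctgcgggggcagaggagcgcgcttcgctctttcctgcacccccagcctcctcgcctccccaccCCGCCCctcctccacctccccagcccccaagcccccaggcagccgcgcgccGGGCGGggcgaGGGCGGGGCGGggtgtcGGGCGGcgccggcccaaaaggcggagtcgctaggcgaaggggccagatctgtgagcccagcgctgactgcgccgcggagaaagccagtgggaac

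These windows differed in base composition. GC content was 43.0% at the upstream start of EPHA4 and 74.3% at its downstream start, against 64.3% for EPHA2, 69.0% for EPHB3 and 71.7% for EFNA1. Over all 35116 promoter windows of the table the median was 58.7%. All 10 genes had an entry, and EPHA4 and EPHB2 had 2 each. The 2 windows of EPHB2 overlap almost fully and hold the same GC box. Each of the 12 windows held at least 1 GC box, a motif found in 45% of all windows. That share makes no allowance for GC content, which ran from 43% to 83% in the 12 windows. The GC box matches numbered 5 for EFNA1, 3 for EPHB3, 1 for EPHA2, and 1 and 5 for the upstream and downstream starts of EPHA4. In EFNA1 a pair of these matches overlapped. The EPHA2 window also held the TEAD motif, found in 14.0% of all windows, and the EFNB2 window a TATA box (TATAAA), found in 11.5%. None of the 12 windows held the AP-1 motif TGANTCA (7.71% of all windows), the E-box CACGTG (7.26%), the ETS motif CCGGAAG (10.3%) or the forkhead motif GTAAACA (3.42%), searched on both strands.

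Levels are given in RPKM, read counts scaled by gene length and by the library's mapped reads, so they can be compared between genes. Read counts themselves were not used here. The most common ratio between libraries of the values of short RNA genes gave a relative depth that ranged from 63.3% to 111% of control replicate 1. Such ratios can mistake a factor of 2. AREG was at 315.6, 202.1 and 188.8 RPKM in the controls, 6.63, 16.7 and 16.25 with Tet, and 20.9 and 17.45 with Tet+EGF. Whether replicates came from separate cultures is not stated, so the p-values reflect the spread among these libraries alone, which may be technical. Correlations across genes were 0.990 to 0.996 between libraries of the same group and batch, and 0.953 to 0.962 between libraries of the same group in different batches. The basal keratinocyte markers summed to 17006 RPKM or more in each library.

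Markers of other cells were mostly low, and some moved with the groups. Of 10 endothelial markers, 8 stayed under 1 RPKM in each library. PECAM1, TIE1, EMCN and CLDN5 were at 0 in all 8, and of the 2 tested KDR rose and ENG fell with Tet. The summed endothelial level was 9.43 to 10.4 RPKM in controls, 5.87 to 10.6 with Tet and 8.15 to 8.38 with Tet+EGF. All 10 basal markers were called between Tet and control, 6 up and 4 down, where 26.2% of all genes tested rose and 29.9% fell. Of 8 suprabasal markers tested, 5 rose with Tet and 5 fell between Tet and Tet+EGF, where 9.15% of all genes tested fell. The rise of KRT10, IVL and TGM1 with Tet was seen in batch 1 and hardly in batch 2. The summed suprabasal level was 49.0 to 74.5 RPKM in controls, 78.9 to 279.9 with Tet and 18.6 to 20.9 with Tet+EGF. Fibroblast markers summed to 11.3 to 16.8, 29.1 to 30.2 and 12.4 to 13.1 RPKM in the same order. Of the 4 fibroblast markers tested, 2 rose with Tet, while COL1A2, COL3A1, PDGFRA and PDGFRB stayed at or under 0.026 RPKM. Leukocyte markers summed to 47.6 to 59.1, 29.2 to 41.9 and 108.9 to 109.4 RPKM, almost all from CD68 and LCP1, the 2 tested, which fell with Tet in the fit. In batch 2, however, LCP1 was at 21.7 RPKM in the control and 24.95 with Tet. PTPRC, the pan-leukocyte marker, was at or under 0.005 RPKM. No melanocyte marker passed the filter, and their sums were 0.378 to 0.687, 0.766 to 0.930 and 0.443 to 0.531 RPKM. The part of any of these markers in the results for the Eph and ephrin genes was not tested.

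**Figure D1:**
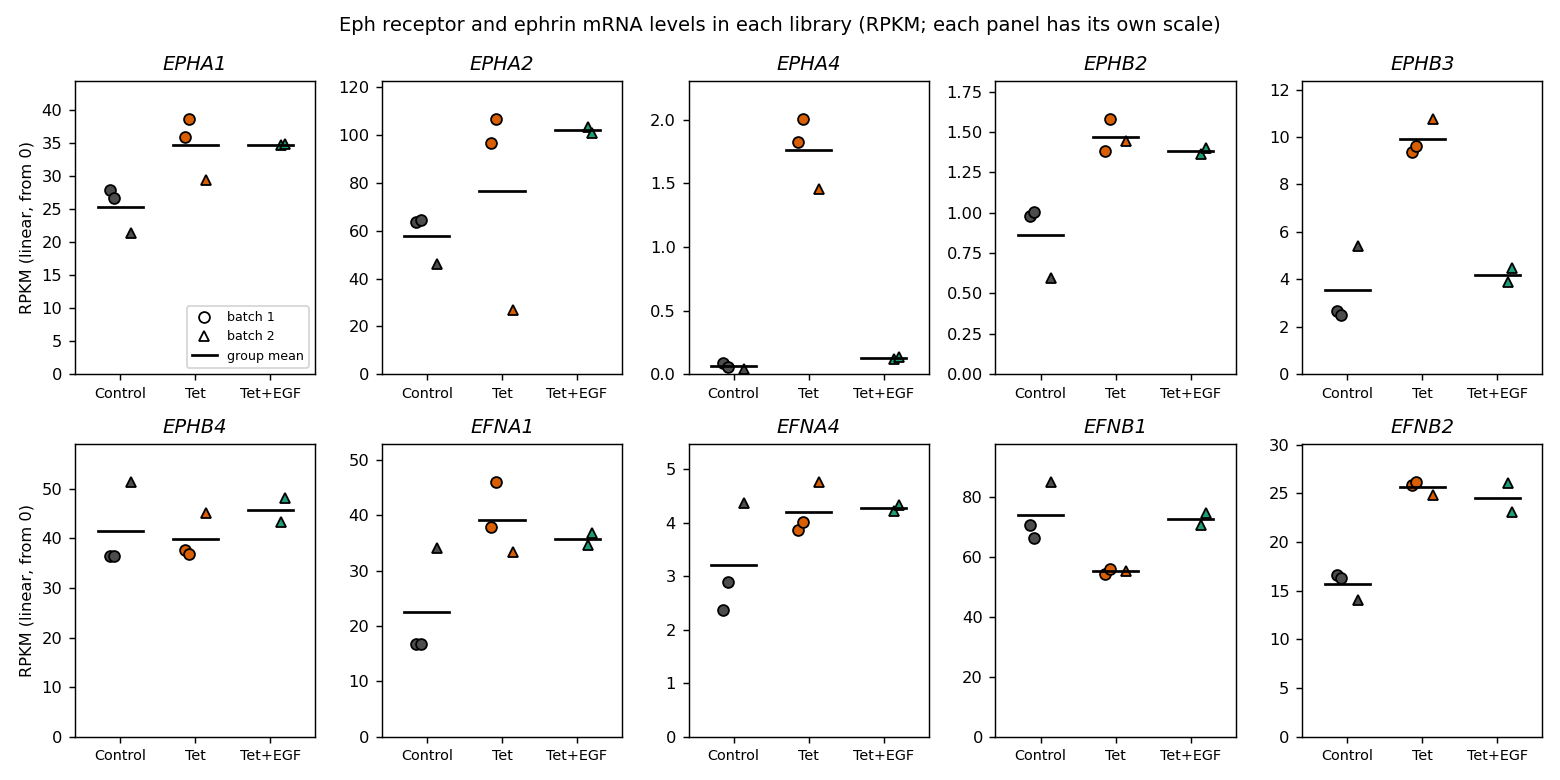
RPKM of each of the 10 genes in each library, on a linear axis that starts at 0 and differs between panels; circles are batch 1, triangles batch 2, and lines are group means. EPHA4 and EPHB3 were highest in the Tet libraries, and in EPHA2 the Tet library of batch 2, at 26.9 RPKM, lay apart from the other Tet libraries at 96.6 and 106.7.

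In control cells the family was led by a ligand. EFNB1, the gene for ephrin-B1, was at 74.1 ± 9.77 RPKM (SD, n = 3), followed by the receptors EPHA2 at 57.9 ± 10.4, EPHB4 at 41.4 ± 8.62 and EPHA1 at 25.2 ± 3.46. EFNA1 followed at 22.5 ± 9.94 RPKM and EFNB2 at 15.7 ± 1.44. EPHB3 was at 3.53 ± 1.64, EFNA4 at 3.21 ± 1.04, EPHB2 at 0.860 ± 0.230 and EPHA4 at 0.0607 ± 0.0237 RPKM. Among neighbours in this order, the ranges over control libraries overlapped for EPHA2 and EPHB4, for EPHA1 and EFNA1, and for EPHB3 and EFNA4. EFNA1 and EFNB2 differed by less than the SD of EFNA1. By mean level in the controls, EFNB1 stood at the 92.9th percentile of the genes kept and EPHB2 at the 4.83rd.

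With Tet the order changed. EPHA2 had the highest mean, at 76.7 RPKM, but with an SD of 43.4 (n = 3) that spans EFNB1 at 55.3 ± 0.953. EPHB4 at 40.0 ± 4.56, EFNA1 at 39.1 ± 6.45 and EPHA1 at 34.6 ± 4.75 had overlapping ranges, and EFNB2 was at 25.6 ± 0.685. EPHB3 at 9.92 ± 0.729, EFNA4 at 4.21 ± 0.484, EPHA4 at 1.76 ± 0.279 and EPHB2 at 1.47 ± 0.101 RPKM closed the list, the last pair overlapping. With Tet+EGF (n = 2) EPHA2 led at 102.0 ± 1.71 RPKM, above EFNB1 at 72.8 ± 2.91 and EPHB4 at 45.7 ± 3.32. EFNA1 at 35.7 ± 1.47 and EPHA1 at 34.7 ± 0.103 overlapped, and EFNB2 was at 24.5 ± 2.10. EFNA4 at 4.27 ± 0.0834 and EPHB3 at 4.17 ± 0.412 overlapped, followed by EPHB2 at 1.38 ± 0.0276 and EPHA4 at 0.127 ± 0.00919 RPKM.

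Tet libraries were compared with controls to ask how the family's mRNAs differed when the hairpin was induced. Of the 10 genes, 7 rose and 1 fell, where 26.2% of the 12567 genes tested rose and 29.9% fell (limma on log2(RPKM + 0.5) with a batch term, adjusted p under 0.05 by Benjamini-Hochberg). The median log2 fold change was 0.50 for the 10 genes and -0.04 for all genes tested. EPHA4 passed the filter on low values, at least 1 RPKM in at least 2 libraries, only through its Tet libraries, so it had to differ. When the fit was blocked on replicate number and not on batch, 4 rose and 1 fell (18.2% and 20.1% of all genes), the calls of EPHB2 (limma adjusted p = 0.0507), EFNA1 (0.0517) and EFNA4 (0.147) being lost. In bulk RNA, more cells that express a gene and more RNA per cell cannot be told apart.

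**Figure D2:**
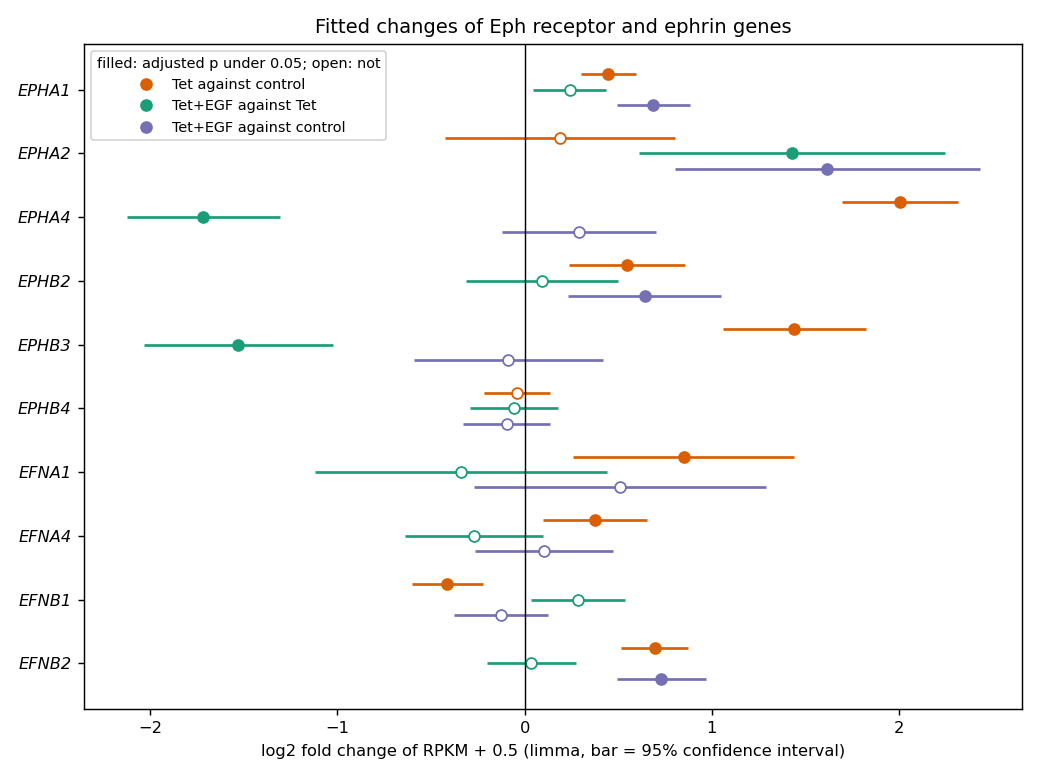
Fitted log2 fold changes of RPKM + 0.5 for the 10 genes in 3 comparisons, with 95% confidence intervals from limma; filled points have an adjusted p under 0.05. EPHA4 and EPHB3 were higher with Tet than in controls (2.01 and 1.44) and lower with Tet+EGF than with Tet (-1.72 and -1.53). EPHA4 passed the filter on low values only through its Tet libraries, so its calls are descriptions.

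Among A-class receptors, EPHA4 showed the largest fitted change of the 10 genes. EPHA4, a receptor that can bind ephrins of both classes, was at 0.039, 0.086 and 0.057 RPKM in control replicates 1, 2 and 3, and at 1.46, 1.82 and 2.01 in the Tet replicates. The groups were far apart, although the level with Tet was low among expressed genes. The ratio of mean RPKM was 29.0, while the log2 fold change on the scale with the pseudocount of 0.5, which understates changes of low genes, was 2.01 (SE 0.13, limma adjusted p = 3.72e-05). It was 2.08 within batch 1 and 1.86 within batch 2. Since EPHA4 was kept only through its Tet libraries, it had to differ, and its p-value is a description. Of the 8 suprabasal markers tested, 5 also rose with Tet, while KRT1, SBSN and KRTDAP were not called, and the part of these markers in this result was not tested.

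EPHA1, one of the A-class receptors long known from epithelia, moved less and evenly. Its levels were 21.3, 27.8 and 26.6 RPKM in the controls and 29.3, 35.9 and 38.5 with Tet, with no overlap. EPHA1 rose by 0.45 on the log2 scale (SE 0.06, limma adjusted p = 0.000931), and the value was 0.44 within batch 1 and 0.45 within batch 2. EPHA2, the receptor with the highest mean level, had no such agreement between batches. It was not the highest receptor in the control and Tet libraries of batch 2, where EPHB4 stood above it at 51.4 and 45.2 RPKM. Its levels were 45.9, 63.5 and 64.4 RPKM in the controls and 26.9, 96.6 and 106.7 in Tet replicates 1, 2 and 3. The Tet library of batch 2 lay below all controls and both Tet libraries of batch 1 lay above them. The pooled log2 fold change of 0.19 (95% interval -0.43 to 0.80) did not pass (limma adjusted p = 0.566). Within batch 1 it was 0.66 and within batch 2 it was -0.76. Without control replicate 1 or without Tet replicate 1 the value was 0.66 and passed (limma adjusted p = 8.47e-05 and 8.43e-05). Either omission leaves this comparison to batch 1 alone, so both repeat the batch 1 value.

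Among B-class receptors, EPHB3 rose with the next largest change. EPHB3, known in mouse for positioning cells in the intestinal crypt together with EPHB2, was at 5.42, 2.68 and 2.49 RPKM in the controls and at 10.7, 9.38 and 9.63 with Tet. All Tet libraries were above all controls, and the control of batch 2 was above those of batch 1. EPHB3 rose by 1.44 on the log2 scale (SE 0.16, limma adjusted p = 0.000352), by 1.70 within batch 1 and 0.93 within batch 2. EPHB2 was low throughout, at 0.595, 0.979 and 1.005 RPKM in the controls and 1.45, 1.38 and 1.58 with Tet, again with no overlap. The rise was 0.55 (SE 0.13, limma adjusted p = 0.01003), or 0.41 within batch 1 and 0.83 within batch 2. EPHB4, the partner of ephrin-B2, was at 51.4, 36.5 and 36.4 RPKM in the controls and 45.2, 37.7 and 36.9 with Tet. These groups overlapped and followed the batches. The log2 fold change of EPHB4 was -0.04 (95% interval -0.22 to 0.14, limma adjusted p = 0.679). It was 0.03 without control replicate 1 or without Tet replicate 1, either of which leaves batch 1 alone.

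The A-class ligands rose in the pooled fit, on weak ground. EFNA1, the gene for ephrin-A1 and a ligand of EPHA2, was at 34.0, 16.8 and 16.8 RPKM in the controls and at 33.3, 37.9 and 46.0 with Tet. The control of batch 2 was above the Tet library of batch 2, so the groups overlapped. EFNA1 rose by 0.85 on the log2 scale (SE 0.25, limma adjusted p = 0.0236), but within batch 1 the value was 1.29 and within batch 2 it was -0.03. Without control replicate 1 or without Tet replicate 1 it was 1.29, the batch 1 value again. The call was lost without control replicate 2 (0.72, limma adjusted p = 0.0812), control replicate 3 (0.72, 0.0840), Tet replicate 2 (0.80, 0.0813) or Tet replicate 3 (0.64, 0.0804). EFNA4, a minor A-class ligand, was at 4.36, 2.36 and 2.895 RPKM in the controls and 4.76, 3.86 and 4.002 with Tet, with overlap. EFNA4 rose by 0.38 on the log2 scale (SE 0.12, limma adjusted p = 0.0304), with 0.51 within batch 1 and 0.11 within batch 2. That call was lost without control replicate 2 (0.27, limma adjusted p = 0.0894) or 3 (0.41, 0.0580), Tet replicate 2 (0.35, 0.0908) or 3 (0.32, 0.0947), or Tet+EGF replicate 1 (0.38, 0.0614) or 2 (0.38, 0.0615). RefSeq also lists read-through genes that join EFNA4 to ADAM15 and to EFNA3, so the split of reads among them is uncertain.

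The B-class ligands moved in opposite directions. EFNB1 fell from 85.1, 70.9 and 66.4 RPKM in the controls to 55.5, 54.2 and 56.1 with Tet, and the groups did not overlap. On the log2 scale the change was -0.41 (SE 0.08, limma adjusted p = 0.00426), or -0.31 within batch 1 and -0.61 within batch 2. EFNB2 rose from 14.0, 16.7 and 16.3 RPKM to 24.8, 25.8 and 26.2, also without overlap. That was a change of 0.69 (SE 0.08, limma adjusted p = 0.000316), or 0.64 within batch 1 and 0.80 within batch 2. EFNB1 held 54.7% to 59% of the summed ephrin RPKM in controls and 37.7% to 39.1% with Tet, while EFNB2 took 9.01% to 14.3% in controls and 17.5% to 18.5% with Tet.

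The effect of Tet differed between batches for 3 of the 10 genes (limma interaction, adjusted p under 0.05), where 26.7% of all genes tested did, so the share was near that of all genes. EPHA2 had the largest difference, with a Tet effect lower by 1.42 on the log2 scale in batch 2 than in batch 1 (SE 0.11, limma adjusted p = 0.000771). For EFNA1 the Tet effect was lower by 1.32 in batch 2 (SE 0.16, limma adjusted p = 0.00271), and for EPHB3 by 0.77 (SE 0.16, limma adjusted p = 0.0147). The libraries that stood apart were not the same for the 3 genes. For EFNA1 and EPHB3 the control of batch 2 was higher than those of batch 1, by 1.00 and 0.94 on the log2 scale, whereas for EPHA2 the Tet library of batch 2 was lower than those of batch 1, by 1.90, and the control of batch 2 by 0.47. AREG was also lowest in the Tet library of batch 2, at 6.63 RPKM against 16.7 and 16.25. The summed suprabasal level was 78.9 RPKM in that library and up to 279.9 in the other Tet libraries. The part of AREG or of these markers in the differences was not tested. Batch 2 held 1 control and 1 Tet library, so library and batch cannot be told apart.

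**Figure D3:**
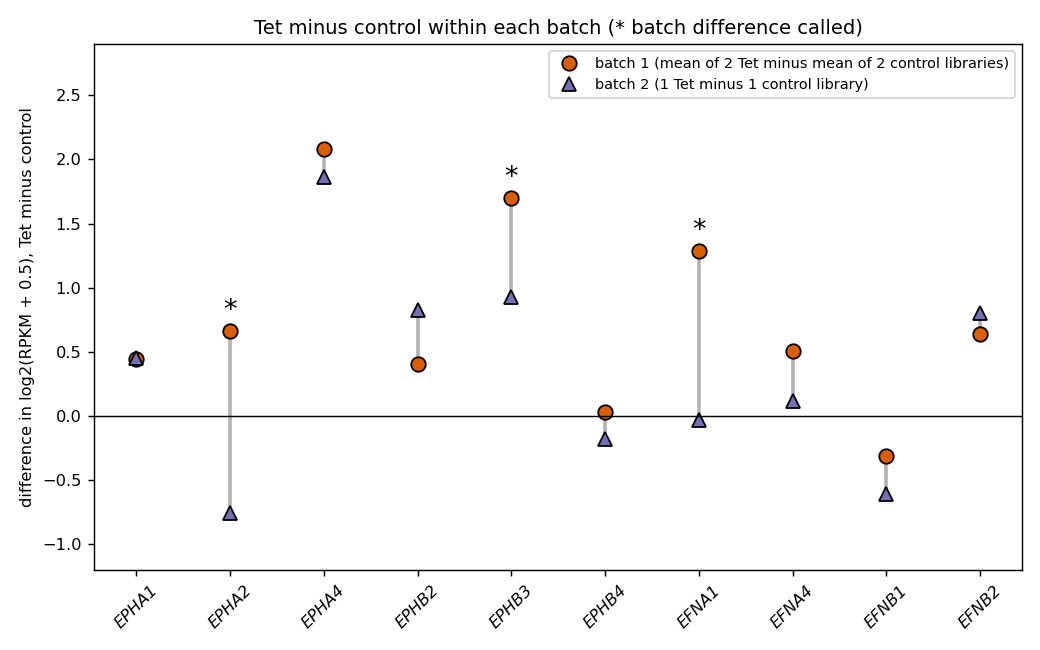
Difference in log2(RPKM + 0.5) between Tet and control within batch 1 (circles) and batch 2 (triangles) for the 10 genes; asterisks mark genes whose Tet effect differed between batches (limma interaction, adjusted p under 0.05). EPHA2 lies on opposite sides of 0, at 0.66 and -0.76, while EPHA1, at 0.44 and 0.45, is the closest pair.

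The comparison of Tet+EGF with Tet asked how the family's mRNAs differed once EGF was added to cells with the hairpin. Of the 10 genes, 1 rose and 2 fell, where 9.82% of the genes tested rose and 9.15% fell. The median log2 fold change was -0.01 for the 10 genes and 0.02 for all genes tested. With no Tet+EGF library in batch 1, the fit assumes the same batch difference in each group. EPHA2, EFNA1 and EPHB3 did not follow that assumption between control and Tet. The values within batch 2, where 1 Tet library is compared with 2 Tet+EGF libraries, are therefore given beside the fit. Without control replicate 1, 3 of the 10 rose and 2 fell, where 19.7% of all genes rose and 14.0% fell. Without Tet replicate 1, 1 rose and 4 fell, where 17.8% of all genes rose and 21.1% fell. No Tet library then shares a batch with Tet+EGF, so values without Tet replicate 1 rest on the batch difference of the controls. Values without control replicate 1 are those within batch 2.

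EPHA4 and EPHB3 fell when EGF was added. EPHA4 was at 0.120 and 0.133 RPKM with Tet+EGF, against 1.46 to 2.01 with Tet, so that the mean with Tet was 13.9 times that with Tet+EGF. The log2 fold change of EPHA4 was -1.72 (SE 0.17, limma adjusted p = 0.00111), and -1.64 within batch 2. EPHB3 was at 3.88 and 4.46 RPKM with Tet+EGF, below all 3 Tet libraries at 9.38 to 10.7. EPHB3 fell by 1.53 on the log2 scale (SE 0.21, limma adjusted p = 0.00365), and by 1.27 within batch 2. The EPHB3 call held without each library in turn. EPHA4 was kept only through its Tet libraries, so its call here is a description. The suprabasal markers were also lower with Tet+EGF, in 5 of the 8 tested, and their part in these falls was not tested.

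EPHA2 was the gene that rose with EGF in the fit, and the size depended on the Tet library it was set against. It was at 103.2 and 100.8 RPKM with Tet+EGF, against 26.9 in the Tet library of the same batch and 96.6 and 106.7 in those of batch 1. The Tet+EGF values thus lay within the range of the Tet libraries. EPHA2 rose by 1.43 in the fit (SE 0.34, limma adjusted p = 0.0301), 1.90 within batch 2 and 0.48 without Tet replicate 1 (limma adjusted p = 0.00792). The 0.48 rests on the batch difference of EPHA2 in the controls (-0.47 on the log2 scale), where that in Tet was -1.90. With no batch term EPHA2 was at 0.64 and not called (limma adjusted p = 0.495), nor was it called with no filter (1.43, 0.061). The call was lost without Tet replicate 2 (1.48, limma adjusted p = 0.0577) and without Tet+EGF replicate 1 (1.41, 0.136) or 2 (1.45, 0.123). The ratio of EPHA2 to EFNA1 in RPKM was 1.35 to 3.84 in controls, 0.809 to 2.55 with Tet and 2.74 to 2.98 with Tet+EGF, the lowest value being that of Tet replicate 1.

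The other 7 genes did not pass. EPHA1 was at 34.6 and 34.7 RPKM with Tet+EGF, with a log2 fold change of 0.24 (SE 0.08, limma adjusted p = 0.0889), and it passed without control replicate 1 (0.24, limma adjusted p = 0.0417). EFNB1 was at 70.7 and 74.8 RPKM with Tet+EGF, above all Tet libraries at 54.2 to 56.1. EFNB1 had a log2 difference of 0.29 (SE 0.11, limma adjusted p = 0.113), 0.39 without control replicate 1 (limma adjusted p = 0.00654, a call) and 0.087 without Tet replicate 1 (0.489). EFNA1 was at 34.7 and 36.8 RPKM, with a log2 fold change of -0.34 (95% interval -1.12 to 0.44), 0.10 within batch 2 and -1.22 without Tet replicate 1, where it passed (limma adjusted p = 0.00102). The -1.22 rests on the batch difference of EFNA1 in the controls (1.00 on the log2 scale), where that in Tet was -0.32. EFNA4, at 4.21 and 4.33 RPKM, had -0.27 (95% interval -0.64 to 0.10), and passed at -0.53 without Tet replicate 1 (limma adjusted p = 0.0443). The Tet libraries then left, at 3.86 and 4.002 RPKM, lay below both Tet+EGF libraries, so the -0.53 came from the batch term. Within batch 2 EFNA4 was at -0.14. EFNB2 was at 26.0 and 23.0 RPKM, around the Tet range of 24.8 to 26.2, and its log2 fold change of 0.03 had an interval from -0.20 to 0.27. EPHB2, at 1.36 and 1.40 RPKM, had 0.09 (95% interval -0.31 to 0.50), and EPHB4, at 43.4 and 48.1 RPKM, had -0.06 (95% interval -0.29 to 0.18). Without control replicate 1 these values were -0.02 for EFNB2, -0.05 for EPHB2 and 0.01 for EPHB4.

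Tet+EGF was also set against control, a comparison that shares libraries with both others. Without control replicate 1 no control shares a batch with Tet+EGF, so values without it rest on the batch difference of the Tet libraries. For EPHA2, EFNA1 and EPHB3 that difference was not the same in control and Tet, so these values are not measured differences. Of the 10 genes, 4 rose and 0 fell, where 16.0% of the genes tested rose and 16.2% fell (limma), and 4 were past an unadjusted p of 0.05. The median log2 fold change was 0.40 for the 10 genes and -0.01 for all genes tested. EFNB2 was higher by 0.73 (SE 0.10, limma adjusted p = 0.00238), and 0.78 within batch 2. EPHA1 was higher by 0.69 (SE 0.08, limma adjusted p = 0.00139), and its 2 Tet+EGF libraries lay above all 3 controls. EPHA2 was higher by 1.62 (SE 0.34, limma adjusted p = 0.0128), or 1.14 within batch 2, where 103.2 and 100.8 RPKM stand against 45.9 in the control. It was 2.57 without control replicate 1, and the call was lost without Tet+EGF replicate 1 (1.60, limma adjusted p = 0.0666) or 2 (1.63, 0.0617). EPHB2 was higher by 0.64 (SE 0.17, limma adjusted p = 0.0290), and the call was lost without control replicate 1 (0.36, limma adjusted p = 0.183) or Tet+EGF replicate 1 (0.66, 0.129) or 2 (0.63, 0.141). Without Tet+EGF replicate 1 or 2, 2 of the 10 genes were called, where 12.9% and 13.4% of all genes were.

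The other 6 genes were not called against control. EPHB3 was at -0.09 (95% interval -0.59 to 0.42), at 0.43 without control replicate 1 and at -0.35 without Tet replicate 1, where it was called lower (limma adjusted p = 0.0407). EPHA4 was at 0.29 (95% interval -0.12 to 0.70), its 2 Tet+EGF libraries at 0.120 and 0.133 RPKM lying above the controls at 0.039 to 0.086. EFNB1 was at -0.13 (95% interval -0.38 to 0.13), at 0.07 without control replicate 1, and at -0.23 without Tet replicate 1, where it was called lower (limma adjusted p = 0.0339). EFNA1 was at 0.51 (95% interval -0.27 to 1.29), and it passed at 1.39 without control replicate 1 (limma adjusted p = 0.000531). Within batch 2, however, its Tet+EGF libraries at 34.7 and 36.8 RPKM were close to the control at 34.0. EFNA4 had 0.10 (95% interval -0.26 to 0.47), and EPHB4 had -0.10 (95% interval -0.33 to 0.14). EFNA4 was at -0.03 without Tet replicate 1, and EPHB4 at 0.05 without control replicate 1.

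Summed over the 14 receptors and the 8 ephrins of the table, the family's makeup also differed between groups. Receptor RPKM summed to 125.3, 131.8 and 131.4 in controls 1, 2 and 3, to 117.8, 185.5 and 198.0 in the Tet libraries, and to 186.7 and 189.8 with Tet+EGF. The Tet library of batch 2 was the lowest of all 8, and EPHA2 held 22.9% of its receptor sum against 52.1% and 53.9% in the other Tet libraries. In controls EPHA2 held 36.7% to 49.1% and with Tet+EGF 53.1% to 55.3%. EPHB3 held 4.86% to 9.12% of the receptor sum with Tet, against 1.89% to 4.32% in controls and 2.08% to 2.35% with Tet+EGF. Ephrin RPKM summed to 155.6, 120.1 and 114.4 in the controls, 142.2, 139.5 and 148.9 with Tet, and 148.1 and 151.4 with Tet+EGF. The 10 genes made up 89.8% to 96.3% of the whole family's sum in each library. The ratio of EPHB4 to EFNB2, a receptor and its ligand, was 2.19 to 3.67 in controls, 1.41 to 1.82 with Tet and 1.67 to 2.09 with Tet+EGF.

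**Figure D4:**
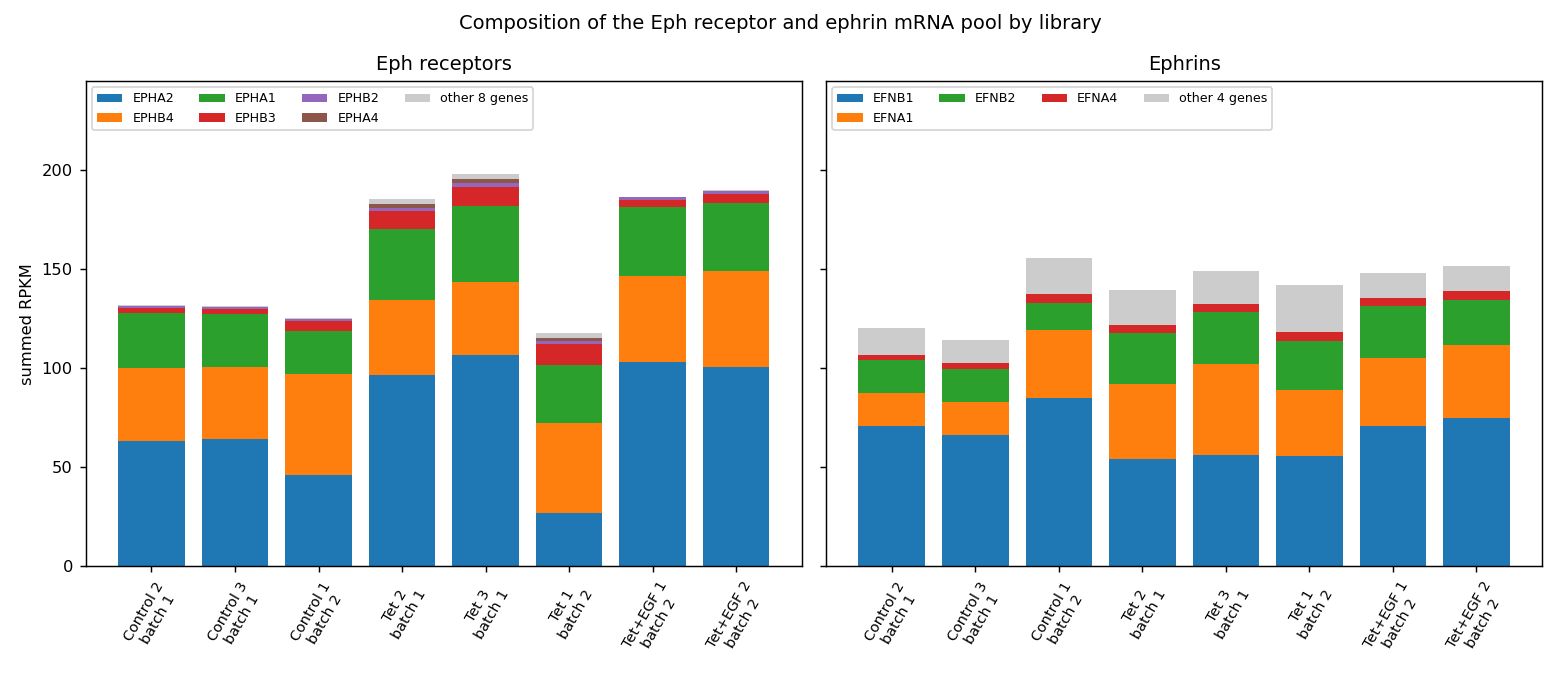
Summed RPKM of Eph receptors (left) and ephrins (right) per library, from 0, coloured by gene and ordered by group and batch. The EPHA2 segment was 26.9 RPKM in Tet replicate 1 and 96.6 or more in the other Tet and the Tet+EGF libraries.

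Of the 12 other family genes, 5 passed the filter on low values. EPHA5, EPHA6, EPHA7, EPHA8, EPHA10 and EPHB1 stayed at or under 0.037 RPKM, and EFNA2 was listed at 0 in each library. EPHA3, EPHB6 and EFNA3 rose with Tet and fell with Tet+EGF against Tet, as did EPHA4 and EPHB3. EPHA3, EPHB6 and EPHA4 passed the filter only through Tet libraries, so they had to be higher there, and their calls are descriptions. EPHA3, an A-class receptor, was at 0.041, 0 and 0 RPKM in the controls, 0.858, 1.33 and 1.44 with Tet, and 0.004 and 0.009 with Tet+EGF. It passed the filter only through 2 Tet libraries. Its log2 fold changes were 1.72 and -1.62 (limma adjusted p = 0.000192 and 0.00346). EPHB6, a receptor without kinase activity, was at 0.510, 0.308 and 0.271 RPKM in the controls, 1.88, 1.34 and 1.20 with Tet, and 0.116 and 0.093 with Tet+EGF. It also passed the filter only through Tet, with log2 fold changes of 1.19 and -1.95 (limma adjusted p = 0.000247 and 0.000505). Against control it was lower with Tet+EGF by 0.76 (limma adjusted p = 0.0127), a call lost without Tet+EGF replicate 1 (0.0755) or 2 (0.0869).

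EFNA3, an A-class ligand gene, lies between EFNA4 and EFNA1 in the RefSeq order on chromosome 1. It was at 8.78, 5.40 and 3.74 RPKM in the controls, 14.6, 11.9 and 10.6 with Tet, and 5.88 and 6.03 with Tet+EGF. Its log2 fold changes were 1.06 with Tet and -1.40 with EGF added (limma adjusted p = 0.00134 and 0.00490), so of the adjacent ligand genes EFNA3 was called in both comparisons and EFNA1 and EFNA4 in the first. Whether EFNA3 differed from its neighbours in response was not tested. Against control, Tet+EGF was at -0.35 for EFNA3 and did not pass (limma adjusted p = 0.245), at -0.52 without Tet replicate 1 it passed (0.0493), and it was 0.00 without control replicate 1. EFNA5, another A-class ligand gene, was at 4.92, 4.06 and 4.35 RPKM in the controls, 3.72, 4.12 and 3.66 with Tet, and 1.51 and 1.59 with Tet+EGF. Its log2 fold change was -0.19 between Tet and control (limma adjusted p = 0.154), -1.13 between Tet+EGF and Tet (0.00191) and -1.31 between Tet+EGF and control (0.000745). EFNB3, a B-class ligand gene, was at 4.37, 3.95 and 3.87 RPKM in the controls, 5.46, 1.71 and 2.30 with Tet, and 5.08 and 4.81 with Tet+EGF. Its Tet effect differed between batches, by 1.12 (SE 0.22, limma adjusted p = 0.0118), in the direction opposite to EPHA2. It was not called between groups in the fit, and without Tet replicate 1 it was called at -0.83 between Tet and control (limma adjusted p = 0.00102) and at 0.99 between Tet+EGF and Tet (0.00827). Without control replicate 1 it was called at -0.83 between Tet and control (limma adjusted p = 0.000988) and at -0.96 between Tet+EGF and control (0.00890). The 0.99 and the -0.96 compare groups that then had no batch in common, so both rest on the batch term. Within batch 2, EFNB3 with Tet+EGF was at -0.13 against Tet and 0.16 against control. Both Tet+EGF libraries lay above every control.

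**Figure D5:**
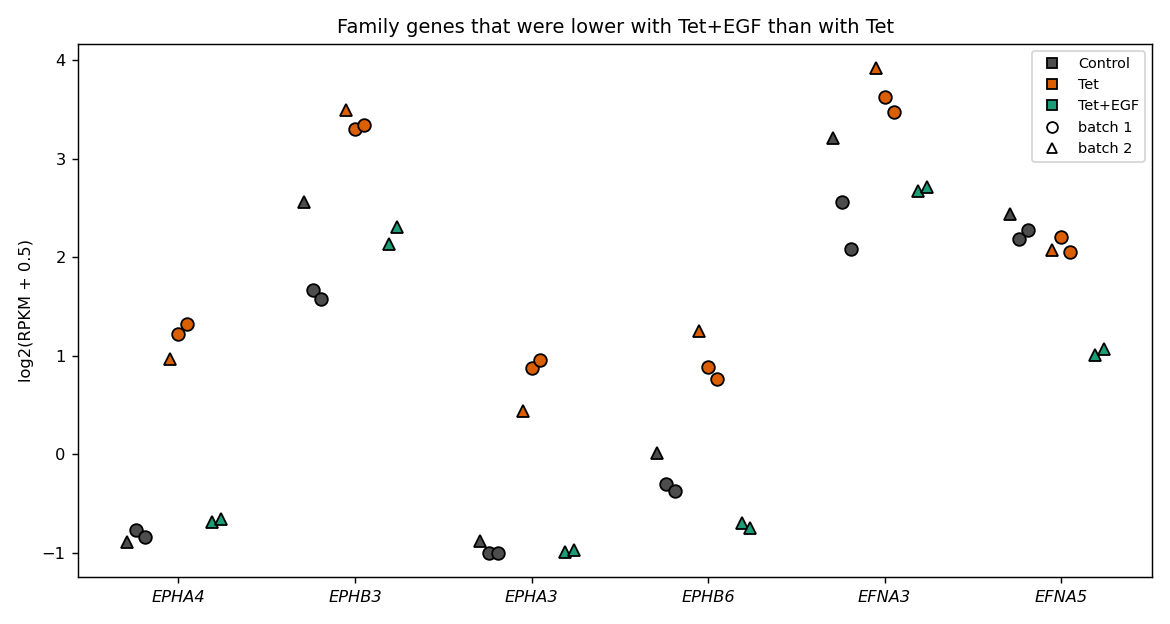
log2(RPKM + 0.5) per library of the 6 family genes called lower with Tet+EGF than with Tet; colours are groups, circles batch 1 and triangles batch 2. In EPHA4, EPHB3, EPHA3, EPHB6 and EFNA3 the Tet libraries lie above the other groups, and in EFNA5 the Tet+EGF libraries, at 1.51 and 1.59 RPKM, lie below both other groups. EPHA4, EPHA3 and EPHB6 passed the filter on low values only through Tet libraries, so their calls are descriptions.

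Genes known to act around Eph receptors and ephrins were listed from general knowledge: proteases that shed ephrins, adaptors, phosphatases and effectors of the cytoskeleton. Of 49 listed names, 48 were in the table and 41 passed the filter. Between Tet and control 7 rose and 18 fell, where 26.2% of all genes tested rose and 29.9% fell. The median was -0.25, against -0.04 for all genes tested. VAV3 was at 6.004, 1.53 and 1.68 RPKM in the controls and 23.2, 6.59 and 5.06 with Tet, with a log2 fold change of 1.67 (limma adjusted p = 5.37e-05). FLOT2, which encodes a membrane raft protein, was at 61.3 to 72.7 RPKM in controls and 87.7 to 108.7 with Tet, a change of 0.54 (limma adjusted p = 0.000254). PTPN1, a phosphatase of receptor tyrosine kinases, fell from 44.9 to 50.011 RPKM in controls to 22.5 to 28.3 with Tet, a change of -0.89 (limma adjusted p = 6e-05). ELMO2, a partner of DOCK exchange factors, fell by 1.11 (limma adjusted p = 0.000166).

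With EGF added to Tet, 8 of these 41 genes rose and 2 fell, beside 9.82% and 9.15% of all genes tested. The counts moved with single libraries, as did those over all genes. Without control replicate 1, 15 rose and 4 fell (19.7% and 14.0% of all genes), and without Tet replicate 1, 9 and 8 (17.8% and 21.1%). Without Tet+EGF replicate 1, 4 rose and 1 fell (3.27% and 3.45% of all genes), and without Tet+EGF replicate 2, 3 and 1 (3.20% and 3.51%). SHC1, an adaptor of receptor tyrosine kinases, was at 160.5 to 165.3 RPKM with Tet and at 308.2 and 315.0 with Tet+EGF, a log2 fold change of 0.85 (limma adjusted p = 0.000851). GRB7, an adaptor, rose by 1.37 (limma adjusted p = 0.00142) and LYN, a Src-family kinase, by 0.88 (0.00168), while VAV3 fell by 1.25 (0.00243). Blocked on replicate number, 4 rose and 0 fell, and the calls of LYN (0.56, limma adjusted p = 0.158) and VAV3 (-0.40, 0.643) were lost. With no batch term, LYN (0.49, limma adjusted p = 0.264) and VAV3 (-0.07, 0.959) were not called either. The Tet library of batch 2 was high for VAV3, at 23.2 RPKM, and the Tet+EGF libraries, at 8.63 and 8.99, were above the other Tet libraries. Against control, 9 rose and 7 fell, beside 16.0% and 16.2% of all genes. The counts were 12 and 18 without Tet replicate 1 (23.5% and 28.9% of all genes), and 1 and 2 without either Tet+EGF library (at most 6.39% and 6.97%). ELMO2 at -1.44, PTPN1 at -0.66 and SHC1 at 0.56 were called there (limma adjusted p = 0.000602, 0.00201 and 0.00288), as was LYN at 0.48 (0.0117), whose call was lost without Tet+EGF replicate 1 (0.0913) or 2 (0.0721).

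Patterns across the 8 libraries were compared by Pearson's r of log2(RPKM + 0.5) with 8537 genes outside the family that had a mean of at least 5 RPKM. The libraries share batch and group, so high values are common and r is a description. The genes most like EPHA2 were PPPDE2 (r = 0.986), CABIN1 (0.985) and IER3 (0.979), the last an immediate early response gene. IER3 was at 37.1 RPKM in Tet replicate 1, 104.7 and 113.4 in the other Tet libraries and 138.6 and 133.0 with Tet+EGF, the same low library as for EPHA2. Those most like EFNB1 were PFDN2 (0.992), NT5C (0.991) and SMARCB1 (0.989), and those most like EPHB4 were PHF21A (0.991), MAP2K5 (0.985) and ZFYVE1 (0.984). For the other 7 genes the 3 highest r ranged from 0.981 to 0.999. Among the 10 genes themselves the closest pairs were EPHB2 with EFNB2 (0.945), EPHA1 with EPHB2 (0.926) and EPHA1 with EFNB2 (0.906), and the most opposed pair was EPHA4 with EFNB1 (-0.902).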

How the data were processed

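Libraries were made from poly(A) RNA with an Illumina kit and read on a Genome Analyzer IIx, each in its own lane, per the labels' protocols. The authors deposited a table of RPKM values, 1 column per library. Reads were aligned with TopHat 1.3.3 per the submitters' processing notes. The counting tool, strand use, genome build and annotation were not given in the sources used here. RefSeq lists antisense genes at EPHA1 and EPHA2, whose reads could be included.

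Groups and batches come from the sample titles and descriptions. Genes with at least 1 RPKM in at least 2 libraries were kept (12567 of 21510). A linear model of log2(RPKM + 0.5) with terms for group and batch was fitted to all 8 libraries (limma 3.58.1, R 4.3.3, eBayes with trend), leaving 4 residual degrees of freedom. The p-values are two-sided, adjusted by Benjamini-Hochberg over genes kept, with a threshold of 0.05. The interaction fit added Tet by batch. The code was tested on simulated data. Members, lists, motifs and tests were chosen with earlier results of these data known. Named genes are the 10 members, other family genes, up to 4 called pathway genes with the smallest p per comparison, and the 3 genes most like each of the 3 most abundant members.

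Same-numbered control and Tet libraries deviated together (correlations of 0.476, 0.314 and 0.338), which met the bar for pairing (each above 0.1). The main fit keeps batch, and replicate number enters as a block in an alternative. Within batch 1, unlike numbers also correlated (0.272 and 0.334), so number and batch cannot be told apart. Alternatives changed the pseudocount (0.1, 1), filter, batch term, libraries fitted, block, scaling, trend, threshold, batch and each library in turn. Tables and figures came from Python 3.11.15 (pandas 2.3.3, matplotlib 3.10.9).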

Additional observations from a re-analysis of the deposited data

Results flagged for a closer look

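The Tet effect differed between batches for 3 genes, by a test of the difference itself (limma interaction of Tet with batch). For EPHA2 the log2 difference between batch 2 and batch 1 was -1.42 (limma adjusted p = 0.000771), with the 1 Tet library of batch 2 below its control and both Tet libraries of batch 1 above theirs. For EFNA1 it was -1.32 (limma adjusted p = 0.00271), and for EPHB3 -0.77 (limma adjusted p = 0.0147). Batch 2 held 1 control and 1 Tet library, which cannot be left out of this test, and the spread behind it comes from the pairs of libraries of the same group and batch. Among all genes tested, 26.7% differed in this way.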

How the results depend on the processing

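Of 601 recomputed values for the 10 genes, 507 counted as unchanged. For tested values this meant the same direction and side of the threshold. Values from batch 2 alone between Tet and control had no test. These had to keep direction and move by less than the largest SD within a group. Where a value changed, the cause was not tested unless the setting itself shows it, as with fewer genes kept or a stricter threshold. Between Tet and control, 5 of the 7 genes with a mean of at least 5 RPKM were called, where 5041 genes over the table were. With the replicate block 5 of the 10 were called (4811 over the table, 38.3%), and under 0.01 also 5 (5023, 40.0%). When 1 library was left out it was 6 to 9 (6013 to 7959, 47.8% to 63.3%). Apart from the filter at 5 RPKM, counts over the table here are of 12567 genes. Those below for Tet+EGF against Tet are 9.25% with no batch term, 32.9% with only the groups compared, 6.76% with the block and 8.26% under 0.01. Against control the shares are 23.0%, 55.9%, 18.3% and 15.1% in the same order. The number called by Tet and batch was 3 without each batch 1 library, an alternative chosen after seeing the data, but the deciding batch 2 libraries stay in. Between Tet+EGF and Tet, batch 2 alone called 5, and leaving out 1 library gave 2 to 5. Genes called over the table were then 1163 with no batch term, 4133 with only the groups compared, 849 with the replicate block, 1038 under 0.01, 5635 in batch 2 alone and 843 to 4893 without 1 library. Between Tet+EGF and control, 1 of the 10 was called with no batch term, 2 with the replicate block, 2 under 0.01 and 2 to 6 without 1 library. The table then gave 7021 with only the groups compared, 2295 with the block, 1894 under 0.01, 7948 in batch 2 alone and 1615 to 6582 without 1 library.

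Small values changed sign. In batch 1 alone EPHB4 was at 0.033 between Tet and control, and at 0.021 with quantile scaling. EFNA1 was at -0.0302 in batch 2, a value with no test. In batch 2 alone, and with only the groups compared, Tet+EGF against Tet was -0.020 for EFNB2, -0.048 for EPHB2, -0.13 for EFNB3, 0.015 for EPHB4 and 0.10 for EFNA1, and Tet+EGF against control was -0.026 for EFNA4, -0.095 for EPHA3 and 0.16 for EFNB3. With no batch term the first comparison gave -0.0626 for EFNB2, -0.0634 for EPHB2, 0.025 for EFNA4 and 0.20 for EPHB4, and the second gave -0.019 for EPHA3, 0.071 for EFNA3, 0.16 for EPHB4, 0.26 for EFNB3 and 0.28 for EPHB3. EPHA3 was at -0.029 there with a pseudocount of 0.1. With the replicate block, which rests on 2 Tet+EGF libraries of negative correlation with their numbers (-0.31 to -0.137), the values were -0.00308 for EPHB2, -0.039 for EFNB2 and 0.13 for EPHB4 against Tet, and 0.0903 for EPHB4, 0.18 for EFNB3 and 0.18 for EPHB3 against control. EPHA2 was then 0.86 against Tet and 1.045 against control, neither called (limma adjusted p = 0.294 and 0.124), nor was EPHB2 against control (0.118).

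Leaving out 1 library moved EPHB4 from -0.068 to 0.0333 between Tet and control. Against Tet, the ranges with Tet+EGF were -0.49 to 1.46 for AREG, -1.22 to 0.10 for EFNA1, -0.051 to 0.14 for EFNB2, -0.13 to 0.99 for EFNB3, -0.0479 to 0.38 for EPHB2 and -0.20 to 0.016 for EPHB4. Against control they were -0.52 to 0.0026 for EFNA3, -0.0265 to 0.37 for EFNA4, -0.23 to 0.074 for EFNB1, -0.96 to 0.16 for EFNB3, -0.095 to 0.49 for EPHA3, -0.35 to 0.43 for EPHB3 and -0.17 to 0.048 for EPHB4. Without control replicate 1, Tet+EGF and control had no batch in common, and without Tet replicate 1, Tet+EGF and Tet had none. Those values rest on the batch term. Where a group kept 1 library, it was assumed to vary like the others. Without read counts, the precision of low levels such as those of EPHA4 in controls could not be given.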

Other observations

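Genes whose pattern across the 8 libraries was most like those of EPHA4 and EPHB3 are named here after their values were seen. For EPHA4 they were GPC1, which encodes a cell-surface proteoglycan (r = 0.996), and KRT6B and KRT6C, keratins of stressed epidermis (0.994 for each). KRT6B was at 837 to 914 RPKM in controls, 1729 to 2166 with Tet and 893 to 988 with Tet+EGF. For EPHB3 the closest gene was HES4, a transcription factor of the HES family (r = 0.999), at 6.04, 1.96 and 1.94 RPKM in the controls, 16.3, 13.7 and 15.3 with Tet, and 3.75 and 4.50 with Tet+EGF. As in EPHB3, the control of batch 2 was above those of batch 1. These correlations share libraries, batches and groups and are descriptions.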
